A study of Mus musculus with 13 samples.

Results

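The skeletal myosin heavy chain cluster was examined in 13 CUT&RUN peak lists of mouse embryonic fibroblasts. CUT&RUN cuts and releases the chromatin fragments to which an antibody has bound. The cluster was taken as the GRCm39 interval chr11:66940000-67290000, a window of 350 kb chosen for Myh3, Myh2, Myh1, Myh4, Myh8 and Myh13. Every peak inside the window was taken, which gave 26 of the 178951 peaks of all lists on chromosomes 1 to 19, X and Y. Of these, 25 came from HA lists, 1 came from the H3K27me3 list and none from the 6 IgG lists. The HA peaks merged into 12 regions, out of 71864 regions formed by merging HA and IgG peaks over the genome. Regions are numbered 1 to 12 below in the order of their position.

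All cells were fibroblasts that carried Pax7-CreERT2, Rosa26-LSL-tdTomato and, from the same cross, CAG-rtTA3, together with a lentiviral, doxycycline-inducible mouse Myf6 that carries an HA tag, and all spent 24 h in the same medium, called iMPC medium. The first group received nothing further, the second (+Myf6) 2 µg/mL doxycycline, and the third (+Myf6+F/R/C) 2 µg/mL doxycycline with 5 µM Forskolin, 5 µM RepSox and 3 µM CHIR99021. Each group had 2 libraries with an antibody against HA and 2 with control IgG, and in each replicate HA and IgG shared their nuclei. A single library with an antibody against the histone mark H3K27me3 came from +Myf6+F/R/C cells and is labelled replicate 1, although its library name carries the prefix of the replicate 2 libraries of that treatment. The transgene is driven by doxycycline in whatever cells took up the virus, so its level per cell is not given by these lists. Peak lists hold no expression values, so the fibroblast label was not checked against marker genes.

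Myosin heavy chains are the motor proteins of the thick filament, and the members of this cluster are used one after another and side by side in skeletal muscle. Myh3 encodes the embryonic chain and Myh8 the perinatal chain, Myh2, Myh1 and Myh4 encode the adult fast chains known as IIa, IIx and IIb, and Myh13 encodes the chain of extraocular muscle. Myf6 (also MRF4) belongs to the myogenic basic helix-loop-helix factors, which bind DNA with E proteins at the E-box, CANNTG, and are known to activate muscle genes of this kind. H3K27me3 is laid down by Polycomb complexes and marks repressed chromatin.

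The order of the genes in the RefSeq table of GRCm38.p6 was Myh3, Myh2, Myh1, Myh4, Myh8 and Myh13. The long noncoding RNAs linc-Myh (2310065F04Rik) and Gm31285 lay between Myh3 and Myh2, and Myhas lay between Myh1 and Myh4. That table is of another build than the peak lists, so it was used for names, order and sequence only, and no peak was placed against a gene start, an exon or an intron.

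Promoter sequences of all 6 members are in RefSeq (GRCm38.p6), each with 250 bases before and 50 after the start. They were searched on both strands, being the only sequence used here, and the share of all 32851 RefSeq promoters of the same length that hold a motif is given beside each count. An E-box of any form was in 4 of the 6, those of Myh3, Myh4, Myh8 and Myh13, against 72.3% of all promoters. The promoters of Myh2 and Myh1 had none in these windows. The form CAGCTG was in the Myh4 promoter alone, at -67 from the start, against 16.3% of all promoters, and the form CAGGTG (or CACCTG) was in none of the 6, against 20.2%. The MCAT element CATTCC (or GGAATG) was in the promoters of Myh1 and Myh4, against 14.7%, the AP-1 form TGANTCA in that of Myh1, against 7.81%. A strict form of the MEF2 consensus, with C as its first and G as its last base, was in none, against 0.557%. A wider form that takes either pyrimidine first and either purine last, added after the sequences had been seen, was in 3 of the 6 and in 3.19% of all promoters. Its match was TTATTTATAG in each of them, at -211 in Myh1, -182 in Myh4 and -99 in Myh8. Among 18 other myosin heavy chain, light chain and light chain kinase genes fixed as a list, 16 had a promoter in the table, and of these 15 held CANNTG, 4 CAGCTG and 6 CAGGTG. Of the same 16, 7 held CATTCC, 1 held TGANTCA, and 0 held either form of the MEF2 consensus. Any CAGCTG or CAGGTG is also a CANNTG. The Myh4 promoter up to the base before the start is shown, because it holds the form CAGCTG, with its 2 E-boxes in this stretch in capitals (plus strand, 5′ to 3′):
Myh4: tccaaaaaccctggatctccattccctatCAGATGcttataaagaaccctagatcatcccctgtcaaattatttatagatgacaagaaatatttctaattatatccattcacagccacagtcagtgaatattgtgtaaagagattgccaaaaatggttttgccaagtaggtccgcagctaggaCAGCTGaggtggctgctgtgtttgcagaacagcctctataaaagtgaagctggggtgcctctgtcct

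The promoters of Myh2, Myh1, Myh4 and Myh8 also shared a run of 14 bases, the longest that any 4 of the members had in common in the direction of the gene, and no other promoter of the table held it in that direction. Each is shown as 40 bases around the run, which is in capitals (plus strand, 5′ to 3′), because it sets these 4 members apart from Myh3 and Myh13. The run began at -125 in Myh2, -160 in Myh1, -158 in Myh4 and -54 in Myh8. No E-box lies within the run.
Myh2: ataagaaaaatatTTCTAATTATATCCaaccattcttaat
Myh1: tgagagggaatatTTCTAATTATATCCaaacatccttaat
Myh4: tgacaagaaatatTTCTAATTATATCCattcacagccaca
Myh8: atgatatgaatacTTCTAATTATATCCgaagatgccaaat

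Depth differed between the libraries and bears on every count. As mean fragments per 10 kb, recovered from the lists, it was 42.4 and 30.6 for HA with Myf6 alone (replicates 1 and 2), 61.9 and 40.9 for HA with Myf6 and the compounds, 30.6 and 23.7 in the HA libraries without doxycycline, 8.25 to 22.7 in the IgG libraries and 54.3 in the H3K27me3 library. A summit pileup below is the number of fragments over the summit of a peak. The fold is the authors' enrichment of that summit over its local background, with 1 added to both. At the low backgrounds here this lowers the folds, more so in shallower libraries. Folds of libraries of unlike depth are therefore not directly comparable. Over the genome, the induced HA lists held 28436 to 38454 peaks and the uninduced ones 2179 and 4230, in the direction of the labels.

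With Myf6 induced, the cluster held HA peaks in every library, and 1 region stood above the others. The +Myf6 lists had 5 and 7 peaks in the window (6 ± 1.41, SD, n = 2) and the +Myf6+F/R/C lists 9 and 2 (5.5 ± 4.95, SD, n = 2). The HA lists without doxycycline had 1 peak each, and the 6 IgG lists had 0. Both +Myf6 libraries and both +Myf6+F/R/C libraries thus lay above both uninduced HA libraries. The difference from the uninduced cells was 5 peaks for +Myf6 and 4.5 peaks for +Myf6+F/R/C (two-sided exact permutation test over libraries, p = 0.333 for both). No lower p can be had from 2 libraries against 2, so neither could pass 0.05. Thinned to the lower depth, the differences were 3.38 and 2.26 peaks, and among peaks with a −log10 q of at least 10 they were 1 and 0.5. Without +Myf6+F/R/C replicate 1 the second difference was 1, and without replicate 2 it was 8.

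Against IgG, the 4 induced HA libraries had on average 5.75 peaks more than the 4 IgG libraries of the same cells, and HA was the higher in 4 of 4 pairs (two-sided exact permutation test, p = 0.0286, the lowest that 4 libraries against 4 can give). With each HA library kept with the IgG library from its own nuclei, the exact test by sign flips had p = 0.125, and 4 pairs can go no lower. The HA libraries were also deeper than their IgG libraries. After HA peaks were thinned to the IgG depth of their pair and held to the lowest −log10 p of that IgG list, 1.93 peaks of difference were expected. That cutoff was 4.31 to 5.27 in these IgG lists and 3.51 to 3.67 in the HA lists, so depth and cutoff cannot be told apart in this value. The exact permutation test again had p = 0.0286 (4 libraries each). With every IgG count at 0, any expected count above 0 gives that p, so the test cannot speak to depth. Without doxycycline the HA excess was 1 peak in each of the 2 pairs (exact permutation test, p = 0.333, 2 libraries each).

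The compounds were not accompanied by a difference in the number of HA peaks that exceeded the spread between replicates. The mean was 0.5 peaks lower with the compounds than with Myf6 alone (two-sided exact permutation test, p = 1, 2 libraries each), and both +Myf6 values fell between the 2 +Myf6+F/R/C values. The difference was 3 without +Myf6+F/R/C replicate 2, -4 without +Myf6+F/R/C replicate 1, 0.5 without +Myf6 replicate 2 and -1.5 without +Myf6 replicate 1. The 9 peaks of +Myf6+F/R/C replicate 1 came from the deepest HA library, and the 2 of replicate 2 from one whose depth was close to that of +Myf6 replicate 1, with 5 peaks. The part of depth in these counts was not tested beyond the thinning given in the closing section.

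**Figure D1:**
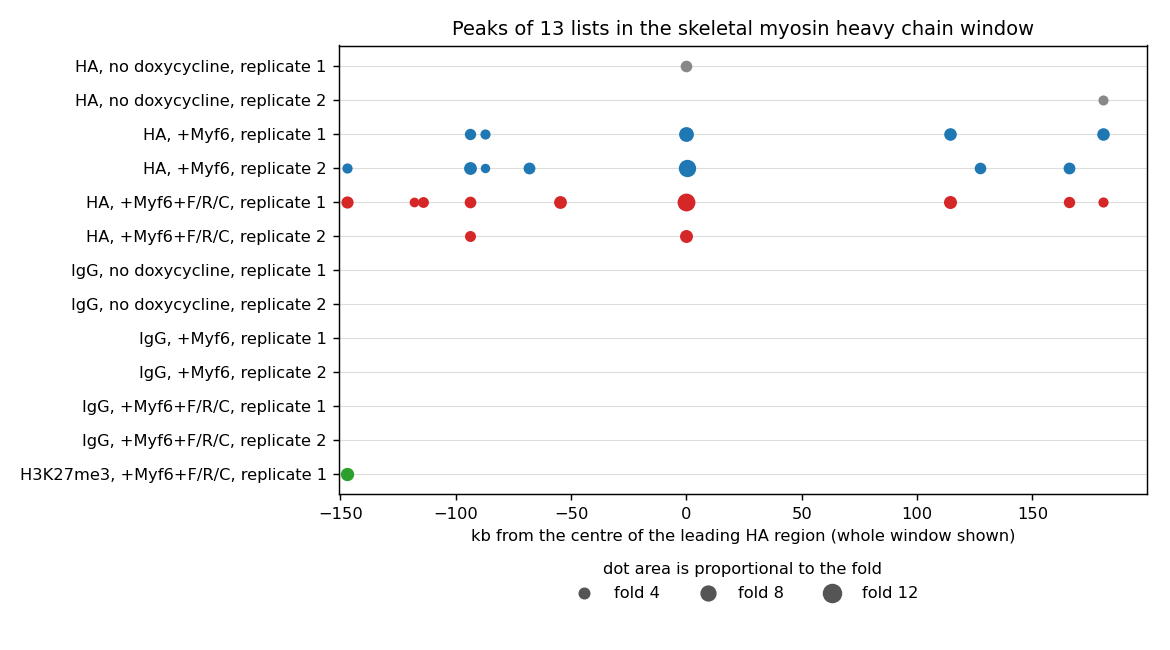
Peaks of the 13 lists along the 350 kb window, by distance in kb from the centre of the leading HA region (region 8). Each dot is a peak and its area is proportional to the authors' fold; the 6 IgG rows are empty and the single H3K27me3 peak lies at the left end.

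Region 8 (chr11:67089997-67090927) was the strongest HA region of the cluster and was found in all 4 induced libraries. With Myf6 alone its folds were 8.41 and 11.6 and its summit pileups 20 and 26 fragments, where 1.50 and 1.34 fragments were expected from the local background (replicates 1 and 2). With the compounds its folds were 12.2 and 6.45 and its pileups 35 and 17 fragments, against 1.95 and 1.79 expected. The treatments overlapped, since the highest and the lowest fold were both from +Myf6+F/R/C cells. Their means were 9.98 ± 2.23 for +Myf6 and 9.33 ± 4.06 for +Myf6+F/R/C (SD, n = 2 each). Divided by the mean fragments per 10 kb of its library, the pileup was 0.471 and 0.851 with Myf6 alone and 0.565 and 0.415 with the compounds, which again overlapped.

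Region 8 ranked high within 3 of its 4 lists. Its peak had a better q than 94.5% and 99.5% of the peaks of the +Myf6 lists (replicates 1 and 2) and than 99.1% and 84.8% of those of the +Myf6+F/R/C lists. In +Myf6 replicate 2 it was number 181 of 35181 peaks by q, and in +Myf6+F/R/C replicate 1 number 363 of 38454. The other 19 peaks of the induced HA lists in the window had folds of 3.42 to 6.52, all below 7, and pileups of 5 to 16 fragments. Compared within each induced library, the fold at region 8 was the highest in the cluster. In +Myf6+F/R/C replicate 2 it was 6.45, against 4.65 at region 4.

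Region 8 also had a peak before induction, in 1 of the 2 HA libraries without doxycycline. In replicate 1 that peak (67090344 to 67090564) had a fold of 5.17 and a pileup of 7 fragments, or 0.228 divided by the mean fragments per 10 kb, about 0.547 being expected. It was in the lower part of its own list, with a better q than 17.1% of the peaks. At the same depth, 30.6 fragments per 10 kb, +Myf6 replicate 2 had 26 fragments over its summit. Replicate 2 without doxycycline had no peak at region 8. At its depth the induced pileups correspond to 9.83 to 20.1 fragments, and 6 would have been enough for a call over a background scaled in the same way. None of the 6 IgG lists had a peak there. In 4 of them, the scaled pileups (from 6.12 up) reached the number needed for a call. The scaling takes no account of fragment length, which was 161 to 172 bp in the induced HA libraries. It was 110 and 117 bp in the uninduced IgG libraries, 104 bp in IgG of +Myf6+F/R/C replicate 1 and 108 bp in uninduced HA replicate 2. Shorter fragments lower a pileup, so whether a call was possible in these libraries is less sure. In +Myf6 replicate 1 and +Myf6+F/R/C replicate 2, the 2 shallowest IgG libraries, the lowest scaled pileups of 5.66 and 3.43 fragments did not reach the 6 and 4 needed, so a signal of that size was not detectable there.

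The summits within region 8 lay close together in 4 of 5 libraries. They were at 67090500 and 67090440 in the +Myf6 libraries (replicates 1 and 2), at 67090508 in +Myf6+F/R/C replicate 1 and at 67090433 in the uninduced replicate 1. In +Myf6+F/R/C replicate 2, the library with the lowest fold of the 4 induced ones, the summit was at 67090733. The 5 summits spanned 300 bp, and the region 931 bp. Single peaks were 531 to 794 bp wide in the induced libraries and 221 bp wide in the uninduced one.

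**Figure D2:**
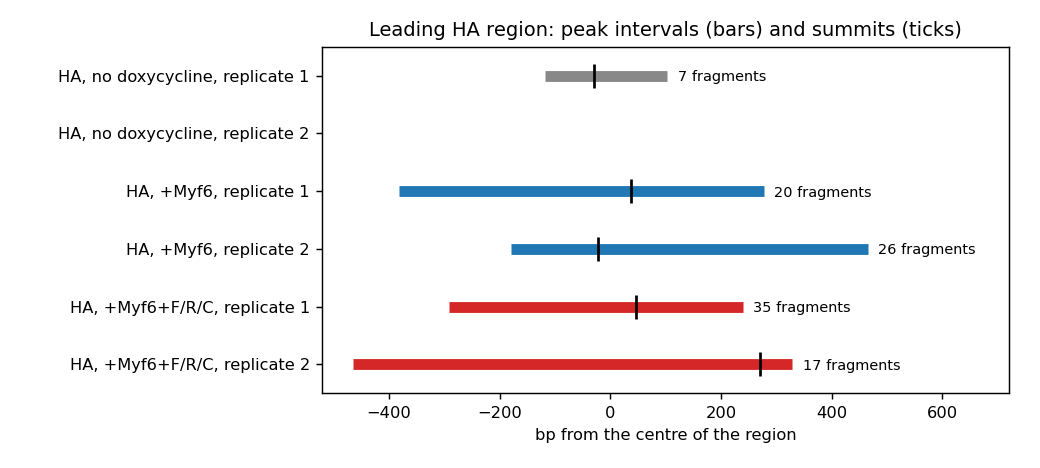
Peak intervals (bars) and summits (black ticks) of the HA lists at region 8, in bp from the centre of the region, with the summit pileup printed beside each. The uninduced replicate 2 row is empty, and the tick of +Myf6+F/R/C replicate 2 lies to the right of the other 4.

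A site was defined as a region with a peak in both HA lists of a treatment and in none of the 8 control lists (6 IgG and 2 uninduced HA). By this rule region 8 was no site, because of the uninduced peak. The cluster had 2 sites with Myf6 alone, or 2 of its 12 regions, where 17.5% of all regions of the genome were sites of that treatment. With the compounds it had 1 site of 12 regions, against 21% of all regions. A single site was common to both treatments, against 10.7% of all regions, and 2 were sites of either, against 27.8%. These shares are near the background or below it and rest on 12 regions. Without regard to controls, both +Myf6 lists had a peak at 3 of the 12 regions, against 22.1% of all regions, and both +Myf6+F/R/C lists at 2, against 26%. An uninduced HA peak was found at 2 of the 12, against 7.29%, and an IgG peak at 0, against 4.39%. If peaks of the uninduced HA lists are not counted as controls, region 8 is added, giving 3 sites with Myf6 alone and 2 with the compounds.

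Region 4 (chr11:66996116-66996965) was the site found with both treatments and the second region with a peak in all 4 induced libraries. With Myf6 alone its folds were 4.95 and 6.33 and its pileups 10 and 14 fragments (replicates 1 and 2). With the compounds the folds were 5.23 and 4.65 and the pileups 14 and 11 fragments. The treatments overlapped in both measures. Its local background was raised to between 1.79 and 2.78 times the mean of each list, as at region 8, where it was between 1.92 and 2.72 times. The centre of the region lay 93.9 kb before that of region 8 and its summits spread over 267 bp, from 66996456 in +Myf6 replicate 2 to 66996723 in +Myf6 replicate 1. At the depth of the uninduced libraries its lowest scaled pileups were 6.93 and 5.35 fragments and its highest 14.0 and 10.8, where 8 and 6 were needed (replicates 1 and 2). In the 6 IgG libraries the lowest scaled pileup missed the number needed as well, so a peak as weak as the weakest induced one was not detectable in any control. Peaks in all 4 induced lists were found at 2 of the 12 regions, against 14.8% of all regions.

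Region 5 (chr11:67002885-67003177), 5.92 kb beyond region 4, was a site with Myf6 alone. It was weak, with folds of 3.98 and 3.42 and pileups of 6 and 5 fragments, with a better q than 5.03 and 2.40% of the peaks of their lists (replicates 1 and 2). In the 8 control libraries even the higher of the 2 scaled pileups would have been at most 5.01 fragments (uninduced replicate 1, where 6 were needed), so a peak of this size was not detectable in any control. No peak was called there with the compounds. Scaled to +Myf6+F/R/C replicate 2, the +Myf6 pileups correspond to 5.79 fragments (from replicate 1) and 6.70 fragments (from replicate 2), which lie on either side of the 6 needed. Scaled to +Myf6+F/R/C replicate 1 they correspond to 8.76 and 10.1 fragments, both above the 7 needed.

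Region 9 (chr11:67204434-67204937), 114 kb beyond region 8, had peaks in both replicate 1 libraries and in neither replicate 2 library. Its fold was 6.10 with 11 fragments in +Myf6 replicate 1 and 6.52 with 16 fragments in +Myf6+F/R/C replicate 1. These were the second highest folds of the 2 lists in the window. No control list had a peak there. Scaled to the uninduced HA libraries, its pileups correspond to 7.92 and 6.11 fragments at the lowest, where 6 and 5 were needed. In the 6 IgG libraries they stayed below the number needed. That number depends on the p cutoff of each list as well as on depth, and the cutoff was stricter in the IgG lists than in the induced HA lists. The shorter fragments of uninduced replicate 2 (108 bp) are not allowed for in this. Scaled to the replicate 2 libraries, these pileups correspond to 7.89 and 10.6 fragments, where 5 and 6 were needed.

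Region 12 (chr11:67270583-67271281) showed the same division of the replicates and also had an uninduced peak. Its fold was 6.05 with 11 fragments in +Myf6 replicate 1 and 3.97 with 7 fragments in +Myf6+F/R/C replicate 1. The HA library without doxycycline of replicate 2 had a peak there with a fold of 3.90 and 4 fragments, with a better q than 2.58% of its list. Divided by the mean fragments per 10 kb of its library, the uninduced pileup was 0.169. The induced values were 0.259 in +Myf6 replicate 1 and 0.113 in +Myf6+F/R/C replicate 1, so the uninduced value lay between them. Scaled to the replicate 2 libraries, the pileups of region 12 ran from 3.45 to 7.92 fragments with Myf6 alone and from 4.62 to 10.6 with the compounds, where 5 and 6 were needed. Regions with both replicate 1 and no replicate 2 libraries of the induced cells numbered 2 of 12, against 4.61% of all regions, and the reverse was seen at 0 of 12, against 3.54%. With 12 regions, these shares are no more than a description. Both replicate 1 libraries were deeper than the replicate 2 library of their treatment.

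The remaining 7 regions each had a peak in 1 or 2 of the induced lists and never in both lists of a treatment. Region 7 (chr11:67035602-67035823) had the highest fold among them, 6.34 with 12 fragments, in +Myf6+F/R/C replicate 1 alone. Scaled to the other 3 induced HA libraries, its pileup corresponds to 5.92 to 8.22 fragments, where 4 or 5 were needed. In the uninduced HA libraries it corresponds to 5.94 and 4.59, where 5 and 4 were needed (replicates 1 and 2), and in the 6 IgG libraries it stayed below the number needed. Region 6 (chr11:67021845-67022226) and region 10 (chr11:67217494-67217795) were in +Myf6 replicate 2 alone, with folds of 5.36 and 5.17 and 7 fragments each. Scaled to the other 3 induced HA libraries, these pileups correspond to 9.37 to 14.2 fragments, where 5 or 6 were needed. They correspond to 7.02 and 5.42 in the uninduced HA libraries, where 5 and 4 were needed (replicates 1 and 2). Among the IgG libraries, only the uninduced ones and +Myf6+F/R/C replicate 1 reached the number needed. Region 2 (chr11:66972103-66972299) and region 3 (chr11:66976250-66976590) were in +Myf6+F/R/C replicate 1 alone, with folds of 3.63 and 4.52 and 10 and 9 fragments. Region 11 (chr11:67256344-67256532) was in +Myf6 replicate 2, with a fold of 5.36 and 7 fragments, and in +Myf6+F/R/C replicate 1, with 4.96 and 9 fragments, and the summits were 17 bp apart. In all, 5 of the 12 regions were in a single induced list and in no control list, against 49.8% of all regions.

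**Figure D3:**
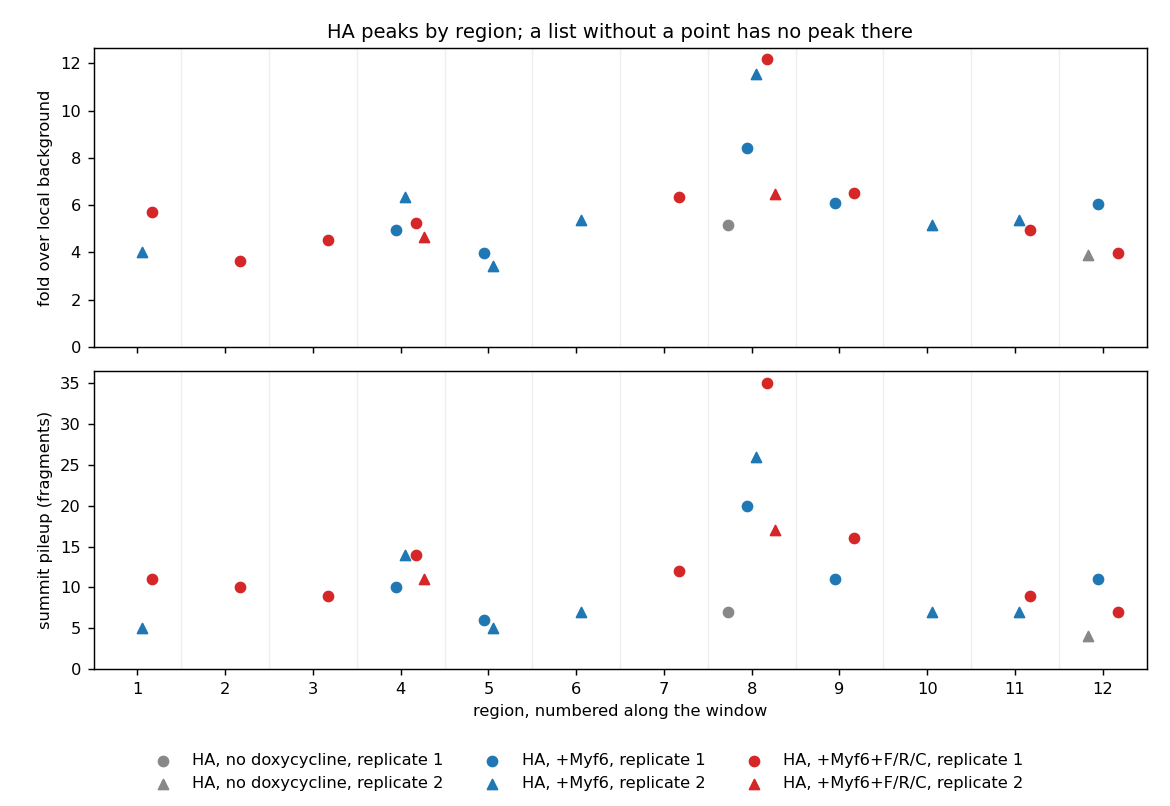
Fold over local background (top) and summit pileup in fragments (bottom) of each HA peak by region, one point per library (circles replicate 1, triangles replicate 2; grey no doxycycline, blue +Myf6, red +Myf6+F/R/C). The highest points of both panels are at region 8, but its +Myf6+F/R/C replicate 2 and uninduced folds lie among those of other regions. Regions 4 and 8 are the ones with 4 coloured points.

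The regions were spread unevenly over the window. From centre to centre, regions 1 to 7 lay 147 to 54.7 kb before region 8, and regions 9 to 12 lay 114 to 180 kb beyond it. The widest stretch without any HA peak, 114 kb, followed region 8, and the next, 54.2 kb, preceded it. Of the 12 regions, 6 had peaks with both treatments, 3 with Myf6 alone and 3 with Myf6 and the compounds alone. The first part includes regions 4 and 5, the sites, and the part beyond region 8 holds no site.

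In +Myf6+F/R/C cells the cluster had a single H3K27me3 peak. It (chr11:66942585-66944256) lay at the start of the window, was 1672 bp wide and covered 0.478% of it. It was a strong peak of its list, with a fold of 6.81, 69 fragments at its summit and a better q than 88.4% of the 32981 H3K27me3 peaks. Its local background of 562 fragments per 10 kb was 10.3 times the mean of the library. Beyond it no H3K27me3 peak followed for 401 kb, a stretch that runs through the rest of the window (346 kb) and past its end. The library has no replicate, and stretches of the mark too low or too broad to be called as narrow peaks do not appear in such a list.

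Region 1 (chr11:66943160-66943388) lay inside the H3K27me3 peak and was the only HA region of the 12 that met the mark, against 26.1% of all regions. In +Myf6 replicate 2 its HA peak was weak, with a fold of 4.02, 5 fragments and a better q than 7.69% of the list. In +Myf6+F/R/C replicate 1 it was near the middle of the list, with a fold of 5.72, 11 fragments and a better q than 53.2% of the peaks. The other replicate of either treatment had no peak there. Neither of the 2 sites of the cluster, regions 4 and 5, had an H3K27me3 peak (0%, exact Clopper-Pearson interval 0 to 84.2%, 95%, counting error only). Over the genome 31.2% of the 19972 sites of either treatment had one, which lies within that interval. The mark was read in +Myf6+F/R/C cells only, where region 5 had no HA peak, and both shares include sites of Myf6 alone. Region 8 was 146 kb from the nearest H3K27me3 peak and region 4 51.9 kb.

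Set beside the 7763 bins of 350 kb on the same chromosomes, the cluster was unremarkable in the number of its peaks. It held 12 merged regions where the median bin held 7, and 36.5% of the bins held at least as many. It held 2 sites of either treatment, as did the median bin. The number of HA peaks was above the median in 3 of the 4 induced lists, being 5 against 2 and 7 against 3 in the +Myf6 lists (replicates 1 and 2) and 9 against 3 in +Myf6+F/R/C replicate 1, and below it in +Myf6+F/R/C replicate 2, with 2 against 3. Bins with at least as many peaks made up 34.3, 30.1, 23.9 and 61.2% in this order. The 1 H3K27me3 peak compares with a median of 2 per bin, and 32.3% of the bins held none. The 1 peak of each uninduced HA list compares with a median of 0, with 20.9 and 36.0% of the bins holding at least 1. The IgG lists had a median of 0 per bin as well, and 81.2 to 95.9% of the bins held none.

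**Figure D4:**
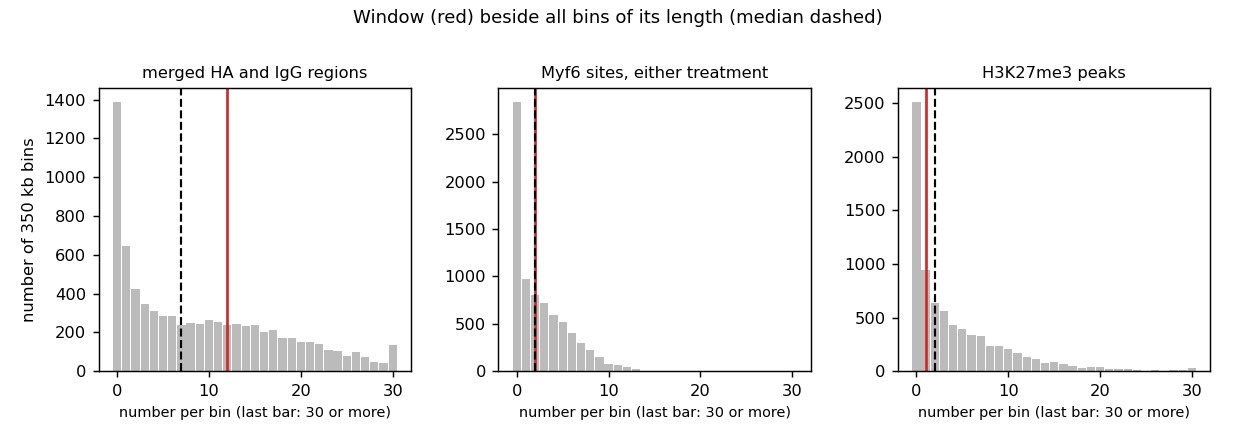
Number of 350 kb bins (vertical axis) by the number of merged HA and IgG regions, of sites of either treatment and of H3K27me3 peaks they hold (horizontal axis), with the cluster's value as a red line and the median as a dashed line. The cluster lies at 12 regions (median 7), 2 sites (median 2) and 1 H3K27me3 peak (median 2).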

How the data were processed

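The data are 13 lists of narrow peaks deposited by the authors, 1 per library, called without pooling. Per the submitters' processing notes, MACS2, DiffBind and deepTools were used with build GRCm39. No version and no aligner is stated there. Each deposited line holds an interval, a summit, a fold (a ratio to local background), a −log10 p-value, a −log10 q-value, and a score that repeats the q-value and was not used. The lowest deposited −log10 q was 1.30. Whole summit pileups and expected pileups were solved from fold and p-value; in each list 99.9% or more of the peaks came within 0.002 of the deposited −log10 p, and 100% of 5000 simulated peaks were recovered. The lowest expected pileup of a list, with the width of its narrowest peak as fragment length, gave its mean fragments per 10 kb. HA and IgG peaks that shared at least 1 bp were merged. Coordinates are 1-based. Comparisons used exact permutation tests over libraries. Thinning scaled pileup and background to the lower depth and summed the binomial probabilities of a call. A scaled pileup in the text is a called pileup times the ratio of depths, so it comes from the lists where the peak was seen and tends to be high. The number needed for a call is the smallest pileup that reaches the lowest −log10 p of the receiving list. This cutoff was 3.51 to 3.67 in the induced HA lists, 4.57 and 4.51 in the uninduced ones (replicates 1 and 2) and 4.31 to 5.49 in the IgG lists. It is not adjusted for fragment length, which ran from 104 to 172 bp over the HA and IgG libraries. Python 3.11.15 with SciPy 1.17.1 was used.

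HA and IgG libraries of a number share nuclei, per the labels' protocols, and are paired by that; over all regions their replicate differences correlated with r of 0.00064 to 0.011. The labels do not say whether replicates were separate cultures, so p-values measure the spread between these libraries, which may be technical. The window, the members and the lists of motifs and myosin genes were chosen with earlier results of these data known. Full values were given for sites and regions with a control peak, and for the 3 regions with the highest fold in each induced treatment; the other regions are given by position, fold and pileup. Planned counts of sites near genes and of motifs at summits were not made, because the reference tables used here are of GRCm38.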

Additional observations from a re-analysis of the deposited data

How the results depend on the processing

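The higher HA counts of both induced treatments over uninduced cells kept their direction under every alternative that was run, and the tests of 2 libraries against 2 could not pass 0.05 under any. Leaving out 1 library gave differences of 4 to 6 peaks for +Myf6 and 1 to 8 for +Myf6+F/R/C. At −log10 q of at least 5 they were 2.5 and 3. The difference between the induced treatments turned positive, 0.5 peaks, at −log10 q of at least 5, ran from -4 to 3 without 1 library, and was -1.16 after thinning. HA against IgG in induced cells no longer passed 0.05 at −log10 q of at least 10 (0.75 peaks, exact permutation p = 0.143, n = 4 each) or with the pairs of nuclei as a replicate block (5.75 peaks, exact sign flips, p = 0.125, n = 4 pairs). It ran from 4.67 to 7 peaks without 1 library, and without any 1 IgG library the exact permutation p was 0.0571. Without doxycycline the HA excess was 0 at −log10 q of at least 5 and of at least 10, and 1 without any 1 library. Between treatments, replicate numbers share only a number, and replicate differences correlated with r = 0.11 between the induced treatments and 0.0094 and 0.018 with the uninduced cells; the replicate block gave the same differences of 5, 4.5 and -0.5.

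Site counts followed the rules closely. With summits within 200 bp there was 1 site with Myf6 alone and 0 were common to both treatments, since the +Myf6 summits of region 4 lay 267 bp apart. Without a filter on control peaks, or with IgG peaks only as controls, region 8 was added, which gave 2 sites with the compounds and 2 common to both. At −log10 q of at least 5 or 10 in the induced lists, 0 sites were left with Myf6 alone, with the compounds or in common. Control peaks of any q still excluded a region under this rule. Region 8, with a −log10 q of 8.26 to 27.1 in the 4 induced lists, was excluded by its uninduced peak of 2.995. With a single replicate in place of both, there were 3 to 6 sites with Myf6 alone, 1 to 7 with the compounds and 1 to 2 in common. The H3K27me3 count of 1 was the same at both stricter thresholds. A count within gene bodies was not run, for lack of gene positions in GRCm39 among the tables used here. Pileups of 4 to 16 fragments at most regions limit what can be said of a missing peak.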
